A study of Homo sapiens with 6 samples.

Results

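The genes described here are 32 genes of the ATF4 pathway, the amino acid synthesis and amino acid transport genes it is known for among them. They were taken as a list of gene symbols, with no measured value in the rule, and all 32 were found among the 56638 gene names of the count table. Of these, 31 had enough counts to be tested, among 16340 tested genes in all, and only NUPR1 did not. The list, its roles and the further lists below were nevertheless chosen with earlier results of these data known. Shares set beside those of all tested genes therefore describe the lists and do not test them. The study compared gene expression between an HL60 line with SKI targeted by CRISPR/Cas9 and an HL60 line that went through CRISPR/Cas9 as a control. HL60 cells come from a human acute myeloid leukaemia and resemble promyelocytes, and SKI encodes a transcriptional co-repressor of SMAD-driven genes. There were 6 libraries of polyadenylated RNA, 3 from the knockout line numbered 3 and 3 from the control line numbered 1, all from cells grown in medium with 10% serum and with no other treatment named. Each group was thus 1 line, so that the knockout and other differences between these lines cannot be told apart. Whether replicates were separate cultures is not said in the labels, and p-values therefore reflect the spread between these libraries alone, which may be technical.

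The integrated stress response starts with kinases that phosphorylate the translation initiation factor eIF2, which lowers protein synthesis in general while favouring translation of the ATF4 mRNA. ATF4 is a bZIP transcription factor that pairs with C/EBP and other bZIP proteins and binds C/EBP-ATF response elements, called CARE, at genes for amino acid synthesis and import, folate metabolism and stress signalling. Since ATF4 is controlled largely at translation, the level of its mRNA is not a measure of its protein. In leukaemia cells the pathway is known for its part in keeping up the supply of amino acids.

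The CARE letters TGATGNAA, searched on both strands, were present in the promoter windows of 8 of the 26 genes of the list that have an entry in the RefSeq promoter table (GRCh38.p14). A window ran from 250 bases before a transcript start to 50 bases after it, and all 44 listed windows of these genes were read. The letters occurred in 30.8% of these 26 genes. They occurred in 4.46% of all 27305 genes with such an entry and in 2.70% of the 9513 of them that were tested. The list was drawn up from known ATF4 pathway genes, so its share describes the list and does not test it. A gene counted where any of its windows held the letters, and the number of windows per gene was not matched. NUPR1, EIF4EBP1, PSPH, SHMT2, ALDH1L2 and SLC7A11 had no entry. The following 5 stretches of 30 bases show the CARE letters in capitals, 5′ to 3′ on the strand of the gene. They were chosen because they come from genes on each side of the comparison: ATF3 and MTHFD1L were higher in the knockout, SLC1A5 was lower, and ASNS and CHAC1, both classical targets of ATF4, did not pass the test. The stretches lie at chr1:212565205-212565234 (plus strand, ATF3), chr6:150866346-150866375 (plus strand, MTHFD1L), chr7:97872458-97872487 (minus strand, ASNS), chr15:40953251-40953280 (plus strand, CHAC1) and chr19:46784893-46784922 (minus strand, SLC1A5).
ATF3: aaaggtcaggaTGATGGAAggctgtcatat
MTHFD1L: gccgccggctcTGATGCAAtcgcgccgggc
ASNS: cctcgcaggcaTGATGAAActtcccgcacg
CHAC1: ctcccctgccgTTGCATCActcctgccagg
SLC1A5: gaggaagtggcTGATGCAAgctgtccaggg
In CHAC1 the capitals are the reverse complement of the motif, which reads TGATGCAA on the other strand. The match began 191 bases before the start in ATF3, 129 in MTHFD1L, 68 in ASNS, 209 in CHAC1 and 97 in SLC1A5. Each distance is to the start of a window that held the match, and the table lists 2 starts for ATF3, 4 for MTHFD1L, 2 for ASNS, 1 for CHAC1 and 3 for SLC1A5. The ATF3 stretch lies outside any gene of GENCODE release 29, and the other 4 overlap an exon of the same gene in that release.

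The letters occurred among genes of each outcome. They were present in 2 of the 7 genes that rose in the knockout, in 1 of the 2 that fell and in 5 of the 17 with a promoter entry that did not pass. The remaining 3 matches were in SLC7A1, SLC3A2 and SLC1A4, all 3 transporter genes. The palindromic cAMP response element TGACGTCA, which ATF family dimers also bind, occurred in 1 of the 26 genes, namely PPP1R15A, at chr19:48872352-48872381 on the plus strand, 58 bases before the start and outside any gene of that annotation. Its stretch is printed because PPP1R15A was among the genes that rose, with the element in capitals.
PPP1R15A: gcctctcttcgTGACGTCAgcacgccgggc
That element was found in 2.25% of all genes with an entry and in 3.69% of the tested ones. A match of letters describes the sequence and shows neither binding nor a cause.

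Library totals ran from 47930276 to 58553247 counts, and the 32 genes took between 1.01% and 1.07% of the counts in control libraries and between 1.16% and 1.23% in knockout libraries. Levels are given as CPM, counts divided by a library size that was scaled by the TMM method of edgeR, fold changes are on the log2 scale as knockout minus control, and a gene is called where the Benjamini-Hochberg adjusted p of edgeR's quasi-likelihood test over all tested genes was under 0.05. SKI itself stood at 63.9, 83.5 and 88.5 CPM in the control and at 59.6, 40.7 and 42.0 CPM in the knockout (log2 -0.73, SE 0.19, adjusted p = 0.0282). The SKI call ended without control replicate 2 (adjusted p = 0.109), control replicate 3 (0.136) or knockout replicate 2 (0.0769), and with library totals (0.0673) or neighbour centring (0.152). The 10 markers of promyelocytes summed to between 13160 and 15440 CPM in control and between 3490 and 9558 CPM in knockout libraries, mostly from MPO. Of these markers MPO, AZU1, PRTN3, CTSG, CD33 and CEBPE were each called lower in the knockout, as were 5.63% of all tested genes. MYB and SPI1 did not pass, though all their knockout values lay below the controls, and PTPRC overlapped. ELANE, a defining granule protease of promyelocytes, was below 0.068 CPM in every library. Lists of 8 markers each for other cells stayed low: lymphoid markers summed to at most 21.0 CPM, of which NKG7 made 13.4 CPM on average, epithelial and fibroblast markers to at most 10.1 CPM, and erythroid and megakaryocyte markers to at most 1.09 CPM, with 4 of the last at 0 everywhere. The part of these markers in the results was not tested, and in bulk RNA fewer cells of a type and less RNA per cell cannot be told apart.

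SKI knockout libraries held more mRNA of the stress factors CHOP (DDIT3) and ATF3, of the feedback genes PPP1R15A and TRIB3, of the transsulfuration enzymes CTH and CBS and of the mitochondrial folate enzyme MTHFD1L. They held less of ATF5 and of the glutamine transporter SLC1A5. Both of these lie on chromosome 19, whose well-expressed genes had a median log2 fold change of -0.48. MTHFD1L lies on chromosome 6, where that median was 0.43. The calls of ATF5, SLC1A5 and MTHFD1L ended with each gene centred on its chromosome. The enzymes of serine synthesis, asparagine synthetase and the other transporters did not pass the test. In counts, 7 of 31 tested genes rose (22.6%) where 6.19% of all tested genes did, 2 fell (6.45%) where 5.63% of all tested genes did, and 22 did not pass. The median log2 fold change was 0.23 over the 31 genes, with 23 of them positive, and -0.01 over all tested genes, of which 49.2% were positive. The listed genes are well expressed, and among the 6313 tested genes at least as abundant as the least abundant of them 5.15% rose and 7.29% fell, with a median of -0.04.

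All 3 knockout values lay above all 3 control values in 13 of the 31 genes (41.9%, against 16.0% of all tested genes) and below them in 3 (9.68%, against 16.1%), while in 15 the groups overlapped. The 13 comprised the 7 genes that rose and ATF4, PSPH, SHMT2, PCK2, SLC3A2 and SLC38A2. The 3 were ATF5, SLC1A5 and PHGDH. The authors' deposited table holds all 31 genes, and there 7 were higher and 2 lower at the same threshold, with the same call and direction as here for all 31. The count of 7 depended on single libraries: it was 5 without control replicate 1, 4 without control replicate 2, 2 without control replicate 3, 6 without knockout replicate 1, 7 without knockout replicate 2 and 9 without knockout replicate 3. Over all tested genes those higher numbered 755, 495, 440, 592, 1410 and 1187 in these fits, in that order, against 1012. The count of 2 lower genes was 1 without control replicate 1, control replicate 3 or knockout replicate 1 and 0 without control replicate 2. Over all tested genes those lower numbered 605, 300, 433 and 437 in these fits, in that order, against 920.

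**Figure D1:**
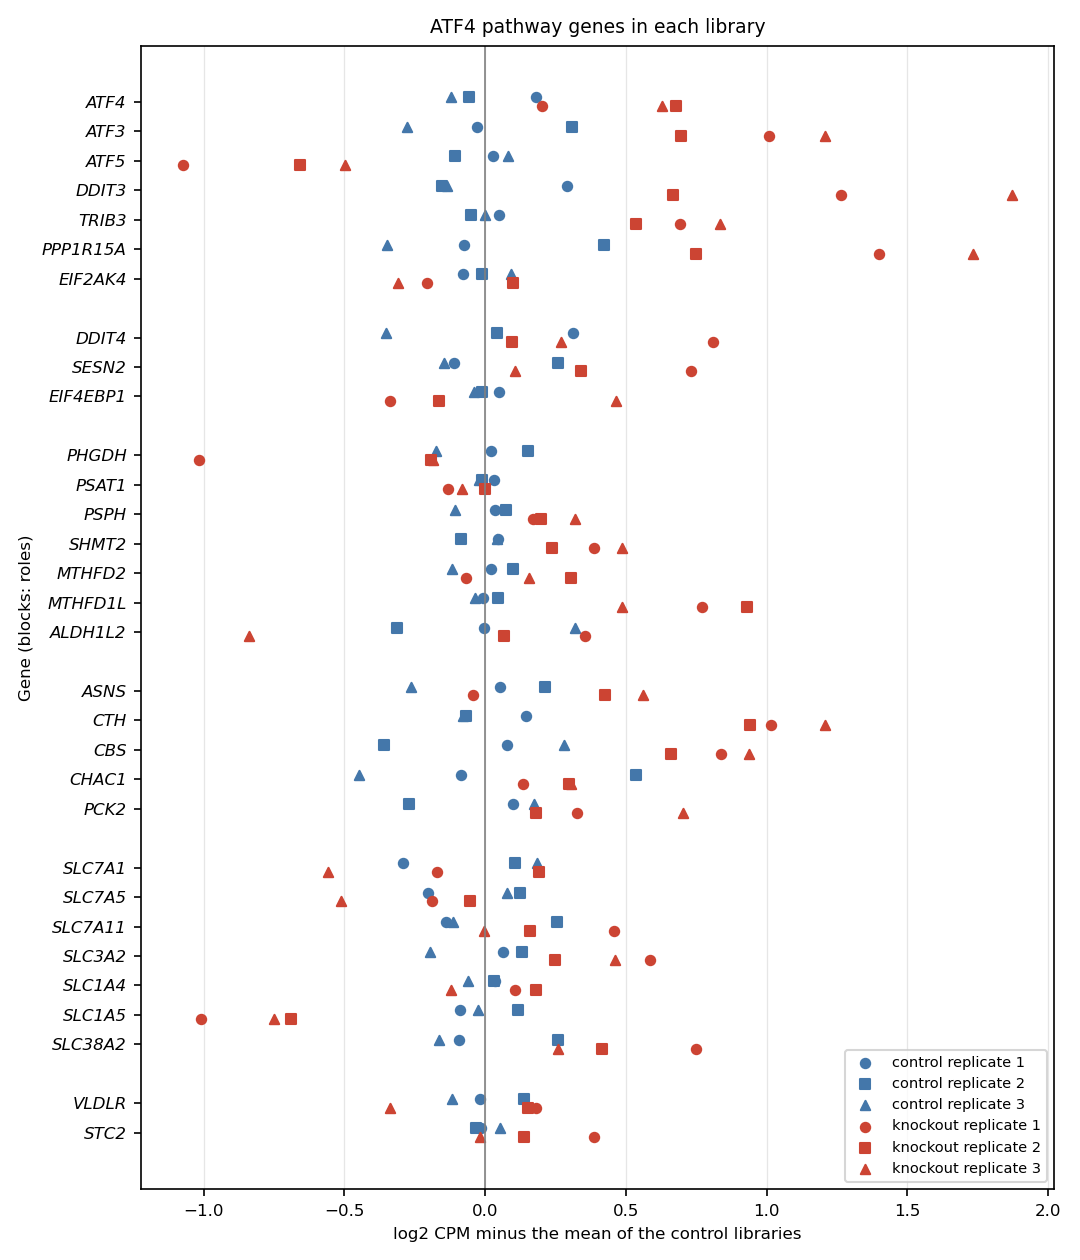
Each of the 31 tested ATF4 pathway genes (vertical axis, in blocks by role) in each of the 6 libraries, as log2 CPM minus the mean of the control libraries (horizontal axis); blue symbols are control and red symbols knockout libraries, with 1 symbol shape per replicate number. Red symbols lie apart to the right in 13 genes and apart to the left in 3.

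Transcription factors and feedback regulators made the block with the most calls, 4 higher and 1 lower of 7 tested, with a median log2 fold change of 0.69. That is 57.1% higher and 14.3% lower, against 6.19% and 5.63% of all tested genes. ATF4 itself stood at 1580, 1339 and 1281 CPM in control replicates 1 to 3 and at 1602, 2232 and 2156 CPM in knockout replicates 1 to 3. The groups did not overlap, but knockout replicate 1 lay only just above control replicate 1. The means were 1400 ± 158 and 1997 ± 344 CPM (SD, n = 3), which is 0.51 on the log2 scale (SE 0.20), and the gene did not pass (edgeR adjusted p = 0.118). It did pass in DESeq2 (adjusted p = 0.0477) and without the filter on low counts (0.0489). The authors' deposited table gives it a log2 fold change of 0.50 and an adjusted p of 0.0519. ATF4 lies on chromosome 22, whose 267 well-expressed genes had a median log2 fold change of 0.23, and with each gene centred on its chromosome the value of ATF4 was 0.28 (adjusted p = 0.417).

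DDIT3 encodes CHOP, a bZIP factor that pairs with ATF4 and drives the late, death-prone arm of the response. It stood at 136, 99.8 and 101 CPM in the control and at 267, 177 and 407 CPM in the knockout. All knockout libraries were higher, with knockout replicate 3 far above knockout replicate 2. The means were 112 ± 20.4 and 283 ± 116 CPM (SD, n = 3), 2.53-fold higher (log2 1.34, SE 0.26, adjusted p = 0.00809). Its coefficient of variation in the knockout, 41.0%, was the largest of the 31 genes. PPP1R15A encodes GADD34, the subunit that directs a phosphatase to eIF2 and so ends the response. It stood at 122, 172 and 101 CPM in the control and at 339, 216 and 428 CPM in the knockout, with the same order of knockout libraries as DDIT3. That was 2.49-fold higher (log2 1.31, SE 0.26, adjusted p = 0.00786). PPP1R15A lies on chromosome 19, whose 694 well-expressed genes had a median log2 fold change of -0.48, and its own value was 1.78 with chromosome centring. Both calls were narrowly lost without control replicate 3, at log2 1.26 and an adjusted p of 0.0597 for DDIT3 and at 1.15 and 0.0581 for PPP1R15A.

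ATF3, a stress-induced bZIP factor with a promoter that carries the CARE letters shown above, stood at 23.1, 29.2 and 19.4 CPM in the control and at 47.4, 38.2 and 54.4 CPM in the knockout. The groups did not overlap. The fold was 1.95 (log2 0.97, SE 0.19, adjusted p = 0.00876), and the call was lost without control replicate 3 (0.83, 0.0584). TRIB3 encodes a pseudokinase that is induced by ATF4 and CHOP and restrains them. It stood at 725, 677 and 700 CPM in the control and at 1132, 1016 and 1248 CPM in the knockout. The control libraries were close together and all knockout libraries clearly higher, 1.62-fold in the fit (log2 0.69, SE 0.17, adjusted p = 0.0202). Without control replicate 1, 2 or 3 the adjusted p of TRIB3 was 0.0726, 0.112 and 0.0958, at log2 values of 0.72, 0.67 and 0.69.

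ATF5, a close relative of ATF4 that is also translated under stress, went the other way. It stood at 1082, 984 and 1120 CPM in the control and at 504, 673 and 751 CPM in the knockout. All knockout libraries lay below the control. The mean went from 1062 ± 70.4 to 642 ± 126 CPM (SD, n = 3), 1.65-fold lower (log2 -0.73, SE 0.19, adjusted p = 0.0288). ATF5 also lies on chromosome 19, and its call ended with chromosome centring (-0.24, adjusted p = 0.437) and with centring on its 50 nearest genes (-0.15, 0.640). It ended as well without control replicate 1, 2 or 3 (adjusted p = 0.0849, 0.0784 and 0.120) or knockout replicate 1 (0.0900). EIF2AK4, which encodes the amino acid-sensing eIF2 kinase GCN2, stood at 48.7, 51.0 and 54.9 CPM in the control and at 44.6, 55.2 and 41.5 CPM in the knockout, with overlapping groups (log2 -0.13, SE 0.16, adjusted p = 0.636). NUPR1, a stress-induced chromatin protein, had 0 counts in all 6 libraries, which allows levels of at most 0.0509 to 0.0628 CPM (3 counts, counting error only).

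**Figure D2:**
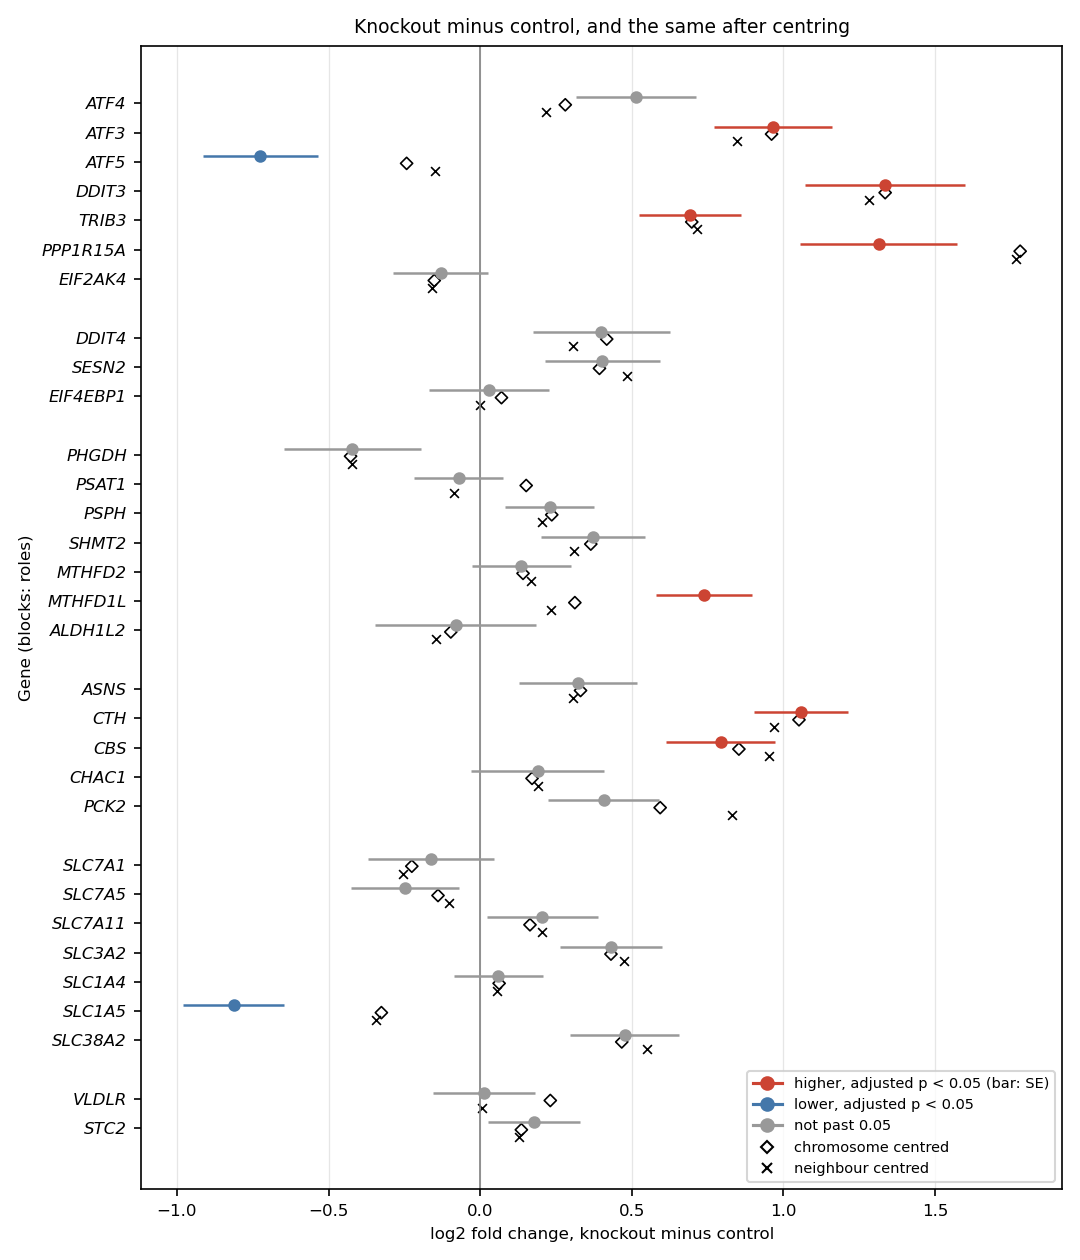
Log2 fold change, knockout minus control, of each tested gene in the fit reported here (filled circle, bar: SE) and after centring on its chromosome (diamond) or on its nearest 50 genes (cross). Red circles mark the 7 genes that rose, blue circles the 2 that fell and grey circles the 22 that did not pass; centring moved ATF5, SLC1A5 and MTHFD1L towards 0 and PPP1R15A away from it.

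The 3 brakes on growth and translation had positive fold changes, a median of 0.40, and overlapping groups. None passed in edgeR, DESeq2 or limma-voom, and 0 of them had an unadjusted p under 0.05. Counts at an unadjusted p have no share of all tested genes beside them here and are not read as many or few. DDIT4, an inhibitor of mTORC1 also known as REDD1, stood at 488, 405 and 308 CPM in the control and at 689, 420 and 475 CPM in the knockout (log2 0.40, SE 0.23, adjusted p = 0.284). Only knockout replicate 1 stood clear of the controls. SESN2, a leucine sensor of the same pathway, stood at 151, 195 and 147 CPM in the control and at 270, 206 and 175 CPM in the knockout (log2 0.40, SE 0.19, adjusted p = 0.199). It passed without knockout replicate 3, the lowest of its group (0.56, 0.0473). EIF4EBP1, the cap-binding inhibitor 4E-BP1, had a log2 fold change of 0.03 (SE 0.20), with knockout replicates at 101, 114 and 176 CPM around controls from 124 to 132 CPM.

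In the serine and one-carbon block the median of 7 genes was 0.14 (range -0.42 to 0.74). Of them 1 rose (14.3%, against 6.19% of all tested genes). In DESeq2 and limma-voom also 1 of them was called. MTHFD1L, the mitochondrial enzyme that releases formate, stood at 175, 182 and 172 CPM in the control and at 301, 336 and 247 CPM in the knockout. The control libraries were nearly level, and each knockout library lay well above them. The means were 176 ± 5.24 and 294 ± 44.7 CPM (SD, n = 3), 1.67-fold higher (log2 0.74, SE 0.16, adjusted p = 0.0121). MTHFD1L lies on chromosome 6, whose 513 well-expressed genes had a median log2 fold change of 0.43, and its call ended with chromosome centring (0.31, adjusted p = 0.250) and neighbour centring (0.24, 0.368). Its adjusted p was 0.0522, 0.0569 and 0.0718 without control replicate 1, 2 and 3. SHMT2, which splits serine to glycine in mitochondria, stood at 1102, 1007 and 1101 CPM in the control and at 1397, 1261 and 1496 CPM in the knockout. These groups did not overlap either (log2 0.37, SE 0.17), yet the gene did not pass (adjusted p = 0.184). MTHFD2, which acts between SHMT2 and MTHFD1L, had overlapping groups from 382 to 445 CPM in the control and from 396 to 512 CPM in the knockout (log2 0.14, SE 0.16, adjusted p = 0.641).

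PHGDH, the first enzyme of serine synthesis, had the opposite sign. It stood at 823, 901 and 719 CPM in the control and at 401, 710 and 713 CPM in the knockout. Knockout replicate 1 was far below the rest, whereas the other knockout libraries lay just under control replicate 3 (log2 -0.42, SE 0.23, adjusted p = 0.260). The second enzyme, PSAT1, was the steadiest of the 31 genes in the knockout, with a coefficient of variation of 4.64%, at 448, 434 and 431 CPM in the control and 399, 438 and 414 CPM in the knockout (log2 -0.07, SE 0.15). The third, PSPH, stood at 29.2, 30.0 and 26.4 CPM in the control and at 32.1, 32.7 and 35.5 CPM in the knockout, groups that did not overlap by a narrow margin (log2 0.23, SE 0.15, adjusted p = 0.353). The 3 enzymes of 1 short pathway thus had fold changes of different sign, none past the test. ALDH1L2, the mitochondrial formyl-folate dehydrogenase, was spread from 31.9 to 73.2 CPM in the knockout, around controls from 46.0 to 71.4 CPM (log2 -0.08, SE 0.27).

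Among the asparagine, transsulfuration, glutathione and gluconeogenic enzymes 2 of 5 rose (40%, against 6.19% of all tested genes). All 5 fold changes were positive, against 49.2% of all tested genes, and the median was 0.41. CTH, the cystathionine lyase that releases cysteine, stood at 26.5, 22.9 and 22.7 CPM in the control and at 48.5, 46.1 and 55.4 CPM in the knockout. Both groups were tight and far apart. Knockout libraries were 2.08-fold higher (log2 1.06, SE 0.15, adjusted p = 0.00182), the smallest p of the list. CTH kept its call under all 15 alternatives, with log2 values from 0.97 to 1.14 and a highest adjusted p of 0.0204. CBS, which forms the cystathionine that CTH splits, stood at 97.4, 71.9 and 112 CPM in the control and at 165, 146 and 176 CPM in the knockout. Its groups were also apart, 1.73-fold higher in the knockout (log2 0.79, SE 0.18, adjusted p = 0.0154), and the call ended without control replicate 2 (0.63, 0.0835) or knockout replicate 1 (0.80, 0.0526). Consecutive enzymes of transsulfuration therefore both rose.

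ASNS, asparagine synthetase, stood at 293, 327 and 235 CPM in the control and at 274, 379 and 416 CPM in the knockout, where knockout replicate 1 fell within the control range (log2 0.32, SE 0.19, adjusted p = 0.315). CHAC1, which degrades glutathione and is among the most inducible targets of ATF4 and CHOP, stood at 46.5, 71.5 and 36.2 CPM in the control and at 54.2, 60.6 and 61.0 CPM in the knockout. Control replicate 2 was its highest library, and the groups overlapped (log2 0.19, SE 0.22, adjusted p = 0.621). PCK2, the mitochondrial phosphoenolpyruvate carboxykinase, stood at 173, 134 and 182 CPM in the control and at 202, 183 and 262 CPM in the knockout, with knockout replicate 2 barely above control replicate 3 (log2 0.41, SE 0.18, adjusted p = 0.176). PCK2 lies on chromosome 14, whose median was -0.19. With neighbour centring, which was added after seeing the data, its log2 fold change was 0.83 (adjusted p = 0.00699). That was its only call in 15 alternatives, and with chromosome centring it was not called.

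Of the 7 amino acid transporters, whose median was 0.06, 1 fell (14.3%, against 5.63% of all tested genes) and the other 6 did not pass. None was higher in edgeR, and DESeq2 and limma-voom each called SLC1A5 alone. In edgeR 2 had a positive fold change with an unadjusted p under 0.05, a count again without a share of all tested genes beside it. SLC1A5, the sodium-dependent glutamine carrier ASCT2, stood at 729, 841 and 761 CPM in the control and at 386, 481 and 461 CPM in the knockout. The groups were widely separated. The means were 777 ± 57.4 and 442 ± 50.2 CPM (SD, n = 3), 1.76-fold lower (log2 -0.81, SE 0.17, adjusted p = 0.00956). SLC1A5 lies on chromosome 19 too, and its call ended with chromosome centring (-0.33, adjusted p = 0.257), neighbour centring (-0.34, 0.268) and without control replicate 2 (-0.75, 0.0585). SLC1A4, the related carrier ASCT1 on chromosome 2, stood at 183, 183 and 172 CPM in the control and at 193, 203 and 165 CPM in the knockout (log2 0.06, SE 0.15).

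SLC3A2 encodes the heavy chain CD98, which carries the light chains SLC7A5 (LAT1, large neutral amino acids) and SLC7A11 (xCT, cystine) to the membrane. SLC3A2 stood at 396, 416 and 331 CPM in the control and at 570, 450 and 522 CPM in the knockout, without overlap (log2 0.43, SE 0.17, adjusted p = 0.121). SLC7A5 stood at 448, 563 and 546 CPM in the control and at 453, 497 and 362 CPM in the knockout, with overlap (log2 -0.25, SE 0.18, adjusted p = 0.406). Per length, the ratio of SLC3A2 to SLC7A5 was 0.801, 0.669 and 0.550 in the control and 1.14, 0.821 and 1.31 in the knockout, a mean of 0.673 ± 0.125 against 1.09 ± 0.247 (SD, n = 3). The ratios did not overlap, and an exact two-sided permutation test gave p = 0.100, the smallest that 3 against 3 allows, or 0.200 adjusted over the 2 ratios computed. The ratio of SLC3A2 to SLC7A11 overlapped between the groups, at 31.0 ± 3.93 and 36.4 ± 5.42 (SD, n = 3, exact permutation p = 0.300, adjusted 0.300). SLC7A11 had log2 0.21 (SE 0.18), from 20.5 to 27.0 CPM in the control and from 22.6 to 31.1 CPM in the knockout. SLC38A2, the neutral amino acid carrier SNAT2, stood at 148, 189 and 141 CPM in the control and at 265, 210 and 189 CPM in the knockout (log2 0.48, SE 0.18, adjusted p = 0.109), and it passed without knockout replicate 3 (0.60, 0.0308). SLC7A1, the cationic amino acid transporter CAT1, overlapped between the groups, with knockout values of 307, 394 and 235 CPM (log2 -0.16, SE 0.21).

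The receptor gene VLDLR and the secreted hormone gene STC2, both used as ATF4 targets, did not pass in edgeR, DESeq2 or limma-voom, and 0 of the 2 had an unadjusted p under 0.05. VLDLR had log2 0.01 (SE 0.17) and STC2 0.18 (SE 0.15), with overlapping groups.

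Levels compared between genes per length, as TPM (counts divided by the deposited gene length and scaled to the same sum in each library), spanned over 2 orders of magnitude. ATF4 led both groups, at 1787 ± 111 TPM in the control and 2526 ± 328 TPM in the knockout (SD, n = 3). In the control it was followed by ATF5 (1158 ± 92.7 TPM), TRIB3 (765 ± 22.9 TPM), SLC1A5 (752 ± 82.3 TPM) and SHMT2 (712 ± 40.7 TPM), and the means of TRIB3 and SHMT2 both lay within 1 SD of that of SLC1A5. SLC7A11 had the lowest level above 0 in both groups, at 7.63 ± 1.41 and 8.87 ± 2.47 TPM. In the knockout TRIB3 took rank 2 and DDIT3 rank 5, up from 11, whereas ATF5 went from rank 2 to 6 and SLC1A5 from 4 to 8.

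**Figure D3:**
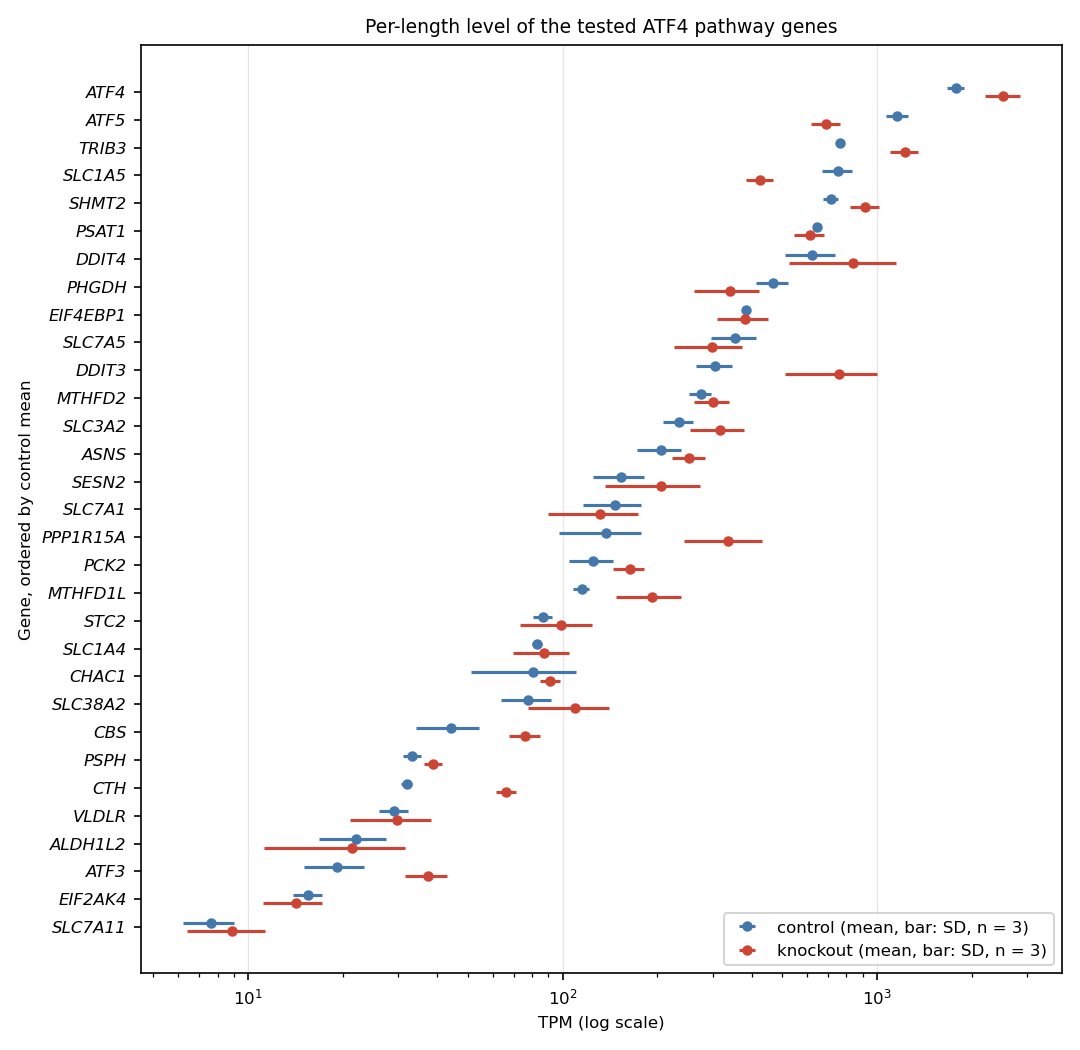
Per-length level in TPM (horizontal axis, log scale; mean, bar: SD, n = 3) of the 31 tested genes, ordered by the control mean, in control (blue) and knockout (red) libraries. ATF4 is the highest in both groups, and the red points of DDIT3, PPP1R15A and CTH lie to the right of the blue ones while those of ATF5 and SLC1A5 lie to the left.

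The listed genes also differed between libraries of a group. The median deviation of the 31 genes from the control mean was 0.02, 0.05 and -0.08 on the log2 CPM scale in control replicates 1 to 3, and 0.33, 0.20 and 0.27 in knockout replicates 1 to 3. Over all tested genes the same medians lay between -0.01 and 0.01. Control replicate 3 was the lowest control library for 18 of the 31 genes (58.1%), which was so for 32.7% of all tested genes. Of the 7 genes that rose, knockout replicate 3 was the highest knockout library for 6 and knockout replicate 2 for 1. Knockout replicate 3 was the highest for 45.2% of the 31 genes and for 37.8% of all tested genes. The spread was close to that of other genes: the median coefficient of variation was 11.3% in the control and 16.6% in the knockout, against 10.2% and 16.8% over 10568 tested genes with an average log2 CPM above 2.

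**Figure D4:**
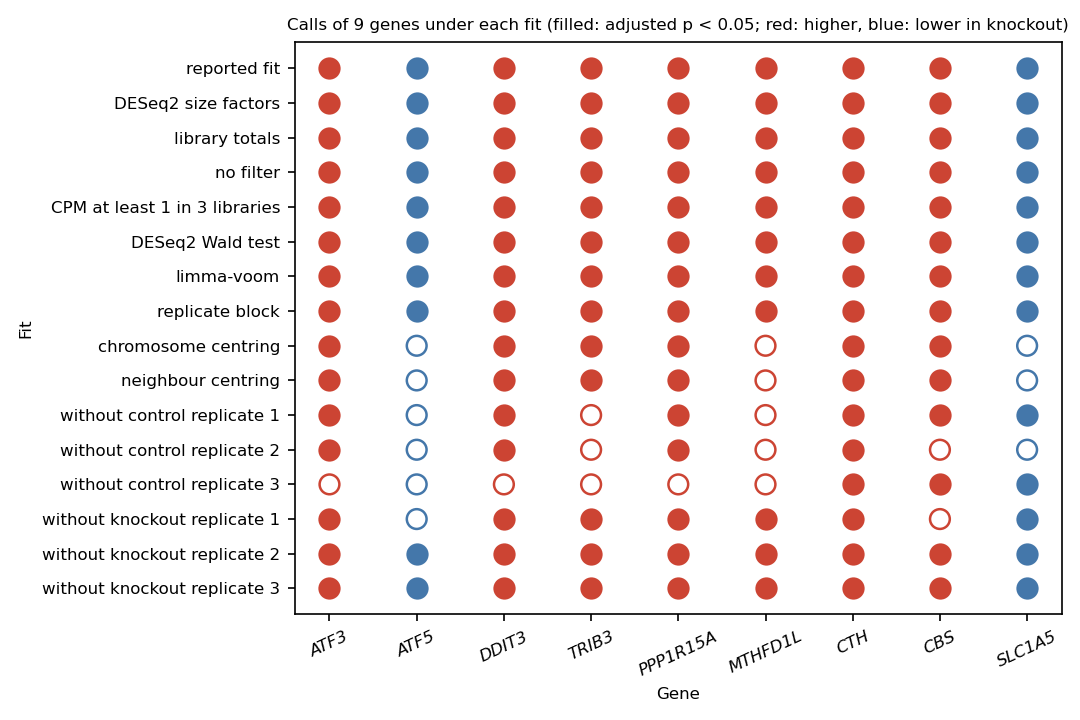
Calls of the 9 genes that passed (horizontal axis) in the fit reported here and under 15 alternatives (vertical axis); filled circles have an adjusted p under 0.05, open circles do not, red is higher and blue lower in the knockout. CTH is filled in every fit, the open circles of ATF5, MTHFD1L and SLC1A5 include both centring fits, and most other open circles stand in the fits without a control library.

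Other genes around ATF4 were read from 7 lists, whose counts stand against 6.19% of all tested genes higher, 5.63% lower and 11.8% called in either direction. These shares are of the fit reported here, and other fits called more or fewer genes in all. The machinery upstream, 18 genes of the eIF2 kinases, eIF2, eIF2B and their regulators, had a median of -0.01, with 1 gene higher (5.56%) and 17 not past the threshold, a share close to that of all tested genes. The gene that rose was EIF2A, an alternative initiator tRNA-binding factor and no subunit of eIF2, whose mean CPM was 172 ± 8.49 in the control and 267 ± 10.5 in the knockout (SD, n = 3, log2 0.64, SE 0.14, adjusted p = 0.0140). Its adjusted p was 0.0518, 0.0907 and 0.0742 without control replicate 1, 2 and 3. The next list held other bZIP factors, not all of them established partners of ATF4. Of its 19 tested genes 2 rose (10.5%) and 1 fell (5.26%), with a median of 0.08. With chromosome centring 4 were higher and 0 lower, where 844 and 558 of all tested genes were, against 1012 and 920. Without control replicate 1, 2 or 3 there were 0 higher and 1 lower. Over all tested genes those 3 fits called 755, 495 and 440 higher and 605, 437 and 300 lower, in that order. ATF6, the membrane-bound sensor of the endoplasmic reticulum, rose by 0.70 (adjusted p = 0.0135), and CEBPB, a partner of ATF4 at CARE sites, rose by 0.58 (0.0455) on the log2 scale. JUNB, an AP-1 subunit on chromosome 19, fell by 0.98 (0.00699), and its call ended with chromosome centring (-0.50, 0.0934) and neighbour centring (-0.55, 0.0671). The ATF6 call ended without control replicate 1, 2 or 3 (0.0583, 0.0787 and 0.0559). That of CEBPB ended without any of those or knockout replicate 1 or 3 (adjusted p between 0.0637 and 0.148), in limma-voom (0.0534), with the replicate number as a block (0.0563) and with neighbour centring (0.0844).

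Of 33 tested further targets of ATF4 and CHOP 10 rose (30.3%, against 6.19% of all tested genes) and 1 fell (3.03%, against 5.63%), with a median of 0.45. The 4 with the smallest p were CCPG1, a receptor for autophagy of the endoplasmic reticulum (log2 1.19, adjusted p = 0.00183), the autophagy gene MAP1LC3B (1.18, 0.00188), the cyclin-dependent kinase inhibitor gene CDKN1A (3.86, 0.00263) and uridine phosphorylase UPP1 (1.55, 0.00313). CCPG1 stood at 73.3, 59.3 and 76.7 CPM in the control and at 164, 130 and 184 CPM in the knockout, and MAP1LC3B at 36.1, 34.1 and 29.7 CPM against 90.7, 60.9 and 75.3 CPM. Neither gene had overlapping groups, and none of these 4 calls ended under any alternative. CDKN1A was low and uneven, at 9.05, 2.17 and 15.8 CPM in the knockout against 0.390 to 0.879 CPM in the control, and its log2 fold change was 3.21 without knockout replicate 3. GDF15 and HMOX1, also among the 10, were low too. GDF15 stood at 7.70, 0.476 and 17.5 CPM in the knockout against 0.0170 to 0.230 CPM in the control. The authors' deposited table gives it an adjusted p of 0.0535. HMOX1 reached at most 0.251 CPM in the control and 0.915 CPM in the knockout. The number of genes that rose was 7 without control replicate 2 or knockout replicate 1, 6 without control replicate 3 and 16 with no filter on low counts. All tested genes called higher numbered 495, 592, 440 and 1630 in these fits, in that order, against 1012.

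Fold changes of genes in the endoplasmic reticulum stress arms of ATF6 and XBP1 were positive in 23 of 24 cases (95.8%, against 49.2% of all tested genes), with a median of 0.49. Of the 24, 4 were called higher (16.7%, against 6.19% of all tested genes), 1 lower (4.17%, against 5.63%) and 19 did not pass. ERN1, the sensor IRE1, stood at 26.4, 19.7 and 27.6 CPM in the control and at 72.4, 48.6 and 51.1 CPM in the knockout (log2 1.22, adjusted p = 0.00309). XBP1, the factor that IRE1 activates, rose by 0.83 (0.0147), and SDF2L1, a chaperone cofactor, rose by 0.66 (0.0320) on the log2 scale. CALR, the lectin chaperone calreticulin on chromosome 19, fell by 0.85 (0.0147), and its call ended with chromosome centring (-0.36, 0.282). XBP1 and SDF2L1 lie on chromosome 22, and their calls ended under chromosome centring as well (0.60, 0.0723 and 0.43, 0.154), and under neighbour centring (0.0876 and 0.0937, and 0.252 for CALR). Of these 4 genes, ERN1 kept its call in every fit. XBP1 lost it without control replicate 2 or 3 or knockout replicate 1 (adjusted p between 0.0510 and 0.0939), and SDF2L1 and CALR without any 1 control library or knockout replicate 1 (between 0.0507 and 0.140). The number of genes that rose was 12 in DESeq2 and with no filter, 8 with the replicate block, 1 without control replicate 2 or knockout replicate 1, 2 without control replicate 3, 10 without knockout replicate 2 and 11 without knockout replicate 3. All tested genes called higher were 1419 of 18381 in DESeq2, 1630 of 30025 with no filter and 1103 with the block, against 1012. In the fits without those libraries they numbered 495, 592, 440, 1410 and 1187, in that order.

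Amino acid genes outside the list were called about as often as all tested genes (11.8%): 10.0% of the synthetases, 11.1% of other transporters and 8.70% of other enzymes. Of 20 cytosolic aminoacyl-tRNA synthetases, whose genes are a classical target group of ATF4, 1 rose and 1 fell, with a median of 0.01. Without knockout replicate 3 there were 2 higher and 1 lower, where 1187 and 1066 of all tested genes were. WARS, the tryptophanyl-tRNA synthetase, which interferon also induces, had a mean of 520 ± 51.1 CPM in the control and 963 ± 96.4 in the knockout (SD, n = 3, log2 0.89, SE 0.17, adjusted p = 0.00709, or 0.0559 without control replicate 3). FARSA, a subunit of the phenylalanyl-tRNA synthetase on chromosome 19, had a mean of 346 ± 7.71 CPM in the control and 163 ± 24.8 in the knockout (SD, n = 3, log2 -1.08, SE 0.16, adjusted p = 0.00194, or -0.60 and 0.0355 with chromosome centring). The 18 other amino acid transporters had a median of 0.04. In edgeR 2 fell and the rest did not pass. Of the rest 4 had a positive fold change and an unadjusted p under 0.05, a count without a share of all tested genes beside it. DESeq2 called 4 of the 18 and limma-voom 2. Over all tested genes DESeq2 called 1419 higher and 1167 lower of 18381, and limma-voom 959 and 928 of 16340. SLC1A3, a glutamate transporter, fell by 2.35 on the log2 scale from a level of 3.83 CPM (0.00624), and by 3.20 without knockout replicate 2. The cationic transporter SLC7A2 fell by 0.67 (0.0364), a call that ended without control replicate 1, 2 or 3 or knockout replicate 1 (adjusted p between 0.0708 and 0.140), with library totals (0.0729) and with neighbour centring (0.0542). The 23 other amino acid and folate enzymes had a median of -0.04, and 2 of them rose. Without knockout replicate 2 there were 4 higher and 2 lower, where 1410 and 1078 of all tested genes were. Without knockout replicate 3 there were 2 higher and 1 lower (1187 and 1066 of all tested genes). Without knockout replicate 1 there was 1 higher (592 of all tested genes), and without control replicate 2 or 3 there were 0 (495 and 440). The 2 that rose in the fit reported here were the transaminase GOT1 (log2 0.88, adjusted p = 0.00980) and the urea cycle enzyme ASL (0.90, 0.0158). GOT1 lost its call without control replicate 2 or 3 (0.0532 and 0.0665) and ASL without control replicate 2 or 3 or knockout replicate 1 (0.0758, 0.0546 and 0.0580).

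Exons of 10 of the 32 genes overlap a gene on the opposite strand in GENCODE release 29, and those of ATF5, DDIT3 and ASNS one on the same strand. The 10 include ATF5, DDIT3 and SLC1A5 among the genes called. The kit was stranded, but no source used here gives the strand setting of the counting, so reads of such pairs may not be told apart. The count table also lists pseudogene copies of 7 of the genes (ATF4, EIF4EBP1, PSAT1, PSPH, MTHFD2, ASNS and SLC7A5). Their summed counts came to at most 0.484% of those of the gene itself in any library, and how reads shared by copies were assigned is not given either.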

How the data were processed

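The 6 HL60 libraries were made from polyadenylated RNA with a kit that keeps strand, per the labels' protocols. Reads were handled with TopHat2, featureCounts of Subread and DESeq2, among other tools, on hg19 (GRCh37), per the submitters' processing notes. Tool versions, annotation and strand setting: not given in the sources used here. Raw counts and gene lengths are as the authors deposited them. The other deposited table gives each count over a size factor (a signal), the authors' log2 fold changes, a test score and p-values. Columns were matched to libraries by group and replicate number.

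Raw counts were filtered with filterByExpr, scaled by TMM and tested with edgeR 4.0.16 (quasi-likelihood F test, limma 3.58.1, R 4.3.3) across 16340 genes, with Benjamini-Hochberg adjustment and a threshold of 0.05. Standard errors were derived from the F statistic. CPM use TMM-scaled library sizes, log2 CPM a prior count of 2, and TPM the deposited length. Library totals ran from 47930276 to 58553247 counts, and 3 counts are the limit given for a count of 0.

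The genes, roles and lists were chosen with earlier results of these data known. All 32 genes are described, and from each other list at most 4 genes past the threshold with the smallest p. GDF15 and HMOX1 are named besides for their low levels, after their values were seen. Chromosomes, gene order and overlaps come from GENCODE release 29 by symbol, which covered 84.1% of tested genes; medians per chromosome were taken over genes of average log2 CPM above 2. The alternatives tried were library totals, size factors from DESeq2, no filter, CPM of at least 1 in 3 libraries, DESeq2 1.42.0, limma-voom, a replicate block, chromosome centring and leaving out each library. Neighbour centring (50 nearest genes) was added after seeing the data. Scripts were tested on simulated data.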

Additional observations from a re-analysis of the deposited data

How the results depend on the processing

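Over 15 alternatives, 423 of 465 fold changes of the 31 genes kept direction and side of the threshold, 22 lost a call, 5 gained one and 15 changed sign, all of the last in genes that did not pass. With each library left out, the genes higher numbered 2 to 9, those lower 0 to 2, their median 0.20 to 0.33 and all genes called 740 to 2488, against 7, 2, 0.23 and 1932. The genes lower numbered 0 with chromosome centring and 0 with neighbour centring, which shift chromosome 19 by construction, while 6 and 7 were higher. All genes called were 2853 with no filter and 2586 in DESeq2 (both within 1.5 times), 1402 with chromosome centring and 1290 with neighbour centring. Signs changed for EIF4EBP1 (-0.0136 in limma-voom, -0.0145 with the replicate block, -0.0014 with neighbour centring, -0.23 without knockout replicate 3), PSAT1 (0.15 with chromosome centring), ALDH1L2 (0.09 without control replicate 3 and 0.22 without knockout replicate 3, in a range over left-out libraries of -0.33 to 0.22), CHAC1 (-0.0117 without control replicate 3, range to 0.50), SLC7A1 (0.0259 without knockout replicate 3, range from -0.34) and VLDLR (-0.0022 in limma-voom, -0.0019 with the replicate block, -0.0001, -0.0467, -0.0662 and -0.0358 without control replicate 1, control replicate 3, knockout replicate 1 and knockout replicate 2, range to 0.18); the cause was not tested. Same-numbered libraries correlated in their deviations at -0.169, 0.422 and -0.089, so the numbers were not taken to pair them; the replicate block called 2107 genes and left all calls among the 31 genes in place, 7 higher and 2 lower. Control replicate 1 and knockout replicate 3 correlated most, at 0.541. Fits without 1 library hold fewer libraries and so, other things equal, less power. Yet genes higher and lower numbered 1410 and 1078 without knockout replicate 2, and 1187 and 1066 without knockout replicate 3, against 1012 and 920. Counting error was not set against the spread between libraries. SLC7A11, the lowest of the 31 genes per length, had 981 to 1720 counts per library. HMOX1 and the control libraries of GDF15 were near 0 CPM, where counting error weighs more. NUPR1 was below detection. One line per group limits what any fold change can be assigned to.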
